A study of Drosophila melanogaster with 2 samples.

Results

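The nuclear genes for the proteins of the mitochondrial ribosome were followed on 2 arrays, 1 of control Drosophila melanogaster and 1 of mutants for mbf1, the gene of multiprotein bridging factor 1. Members were the probe sets whose only gene symbol in the platform annotation starts with mRpL, for the large subunit, or mRpS, for the small subunit. There were 66 such probe sets among 14010, and they read 64 genes, 43 of the large subunit and 21 of the small one. Of the 73 genes with such a symbol in a gene table of the fly, the other 9 had no probe set of their own and were not analysed here, apart from mRpS10, which shared one with another gene.

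The control was yw, flies mutant for yellow (body colour) and white (eye colour), and the other group was homozygous for a mutation of mbf1. The labels do not name the mbf1 allele, the part of the gene it removes, the number of animals behind each RNA extract or whether the mutants carried yellow and white too. According to the labels both groups were embryos that had developed for 16 h at 25 °C, and the genotype was the only thing that set them apart. Testis markers nevertheless gave strong signals in both samples, as given below, and whether the stage label holds was not tested. Each group had 1 array, so no value below has a replicate error, no test was possible, and every difference is one between these 2 arrays. In whole animals, fewer cells of a type and less RNA per cell cannot be told apart.

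Mitochondria keep a ribosome of their own, which translates the few messages of the mitochondrial genome, all of which encode subunits of the respiratory chain and the ATP synthase. Its RNAs come from the mitochondrial genome, whereas every one of its proteins is encoded in the nucleus, made in the cytoplasm and imported. Many of these proteins descend from those of the bacterial ribosome and carry the same numbers, and others were added in the mitochondrial line. In flies, mutations in genes of this ribosome slow growth, and mutants of one of them, technical knockout, are sensitive to mechanical shock.

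The 2 arrays had been deposited at different overall levels, with median signals of 25.4 for yw and 36.9 for mbf1. The mbf1 array was therefore divided by 1.47, which set the median log2 ratio of the brighter genes to 0, and signals are given after this scaling. A floor was set at a signal of 17.7, the 40th percentile, and lower values were raised to it before a ratio was taken. Genes that exceeded the floor on either array are called measured. For the mbf1 transcript itself the yw array gave 478.7 and the mbf1 array 22.1, a 21.7-fold difference.

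As a group, the mitochondrial ribosomal protein genes stayed close to the bulk of genes on both arrays. Of the 64 genes 62 were measured, 60 of them above the floor on both arrays. Their median log2 ratio, mbf1 over yw, was -0.02, against 0.00 for all 7677 measured genes to 2 decimals. Ratios were below 0 for 33 genes and above it for 29, so that 53.2% were lower on the mbf1 array, where the share over all measured genes was 50.2%. The 29 include mRpL3 and mRpL4, which passed the floor on the mbf1 array only, so that their sign was set by the filter. The members' signals summed to 4125 in yw and 3956 in mbf1.

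Their ratios also lay closer together than those of genes in general. The quartiles were -0.18 and 0.15 for the members and -0.26 and 0.25 for all measured genes, and 56 of 62 members, or 90.3%, were within 1.5-fold against 84.8% of all genes. Only mRpL47 was at least 2-fold lower, where 1.63% of all measured genes were, and 0 members were at least 2-fold higher, where 1.51% of all were. At 1.5-fold, 4 members were lower and 2 higher, where 7.74% and 7.45% of all measured genes were. These 6 genes were mRpL47, mRpL10, mRpL38 and mRpL48 on the lower side and mRpL14 and mRpL21 on the higher side. With this scaling all belong to the large subunit, as do 42 of the 62 measured members. The small subunit gene mRpS18C, 1.49-fold lower, passed 1.5-fold after quantile normalization and loess, at -0.59 and -0.60, which made 5 lower. Scaling decides the split into lower and higher genes. It was 1 lower and 24 higher with the values as deposited, and 1 and 6 with scaling on the hybridization controls. These settings put the median of all genes at 0.50 and 0.19.

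**Figure D1:**
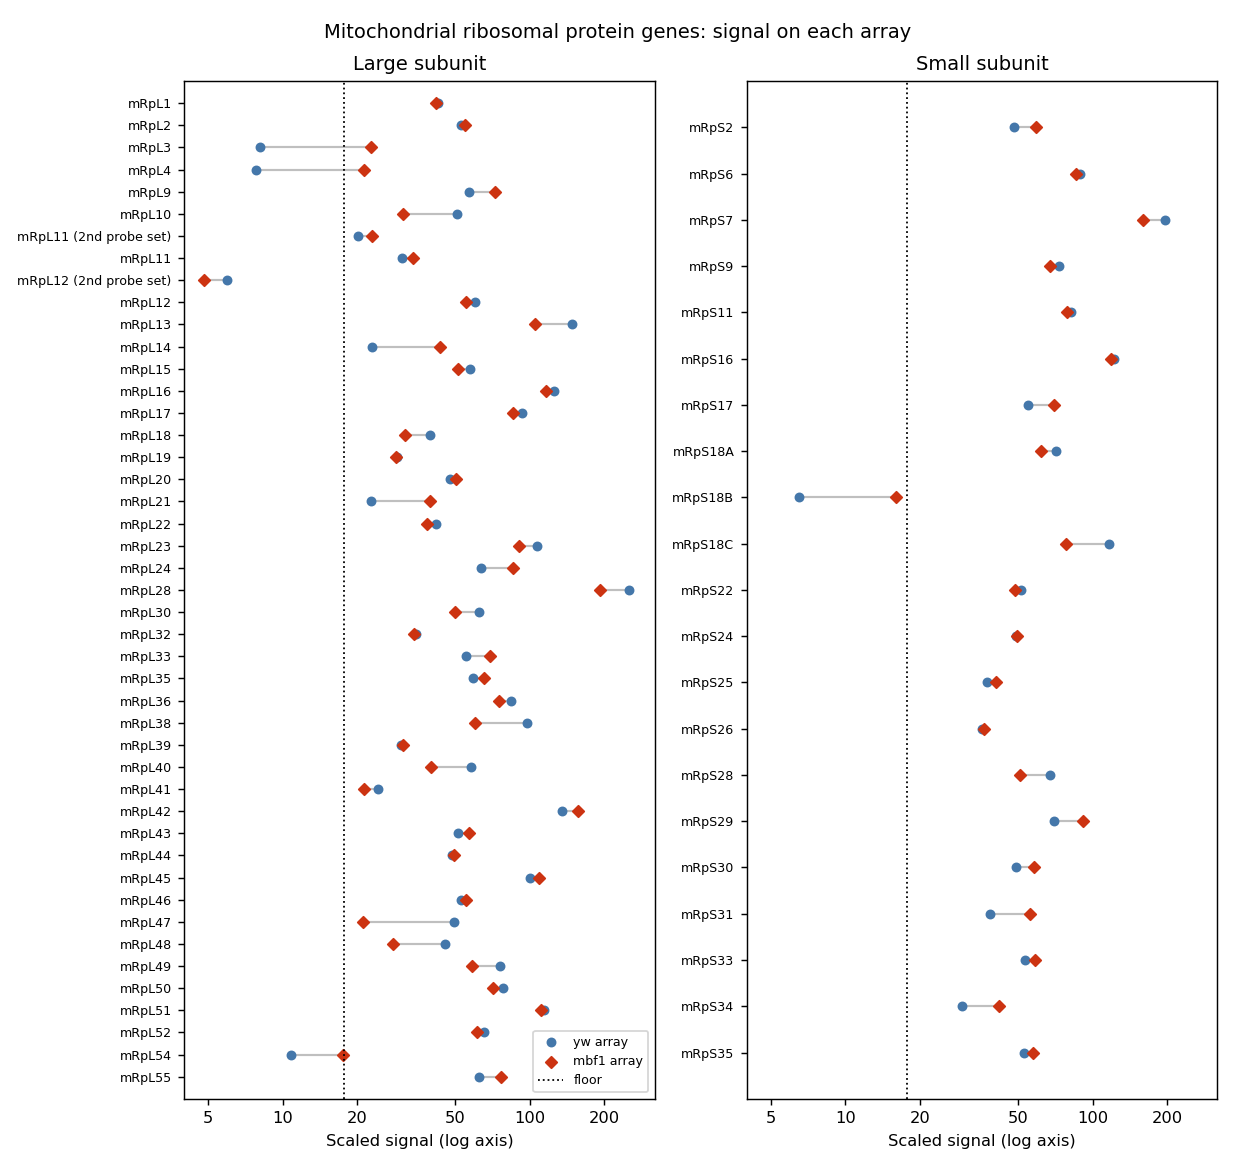
Scaled signal of each of the 66 probe sets on the yw array (circles) and on the mbf1 array (diamonds), on a log axis, with large subunit genes on the left and small subunit genes on the right; the dotted line is the floor of 17.7 and the grey lines join the arrays. The pair of symbols lies close together for most genes, and mRpL47 is the gene with the widest gap towards lower mbf1 signal.

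Large subunit genes had a median ratio of -0.03 over 42 measured members, 24 below 0 and 18 above, with quartiles of -0.22 and 0.15. The lowest member of all was mRpL47, whose protein is the mitochondrial form of bacterial L29 and lies at the rim of the exit tunnel, through which the new chain leaves. Its signal was 49.3 in yw and 21.05 in mbf1, which is 2.34-fold lower (log2 ratio -1.23). The mbf1 value was little above the floor, and raising the floor to the 60th percentile shrank the ratio to -0.46 by construction.

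The other exit tunnel genes had ratios nearer to 0. The gene mRpL24 had signals of 63.1 and 85.3, a ratio of 0.43 or 1.35-fold higher on the mbf1 array. The gene mRpL45, whose mammalian protein anchors the ribosome to the inner membrane, had signals of 100.2 and 108.7. Lower on the mbf1 array, by at most 1.18-fold, were mRpL17, mRpL22 and mRpL23, at ratios of -0.11, -0.12 and -0.24. The 6 genes listed for the tunnel exit had a median of -0.12.

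Genes of the central protuberance, the crest of the large subunit that faces the head of the small one, had the lowest median of the structural groups. Of 5 listed genes with a probe set, 4 were lower on the mbf1 array, where 50.2% of all measured genes were. The median ratio of the 5 was -0.54. Like the other lists, this one was chosen with earlier results of these data known. The gene mRpL38, which encodes a protein of the phosphatidylethanolamine-binding family, had signals of 97.6 and 59.8, or 1.63-fold lower. The gene mRpL48 had signals of 45.5 and 28.0, or 1.62-fold lower. For mRpL40 they were 57.7 and 39.7, or 1.45-fold lower. The gene mRpL18 had signals of 39.5 and 31.1, a ratio of -0.34.

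The exception in the protuberance was mRpL46, with signals of 52.5 and 55.4 and a ratio of 0.08. The median of these 5 genes was -0.53 after both quantile normalization and loess, -0.32 with scaling on hybridization controls and 0.01 with the values as deposited, where the direction turned. Raising the floor to the 60th percentile took it to -0.35, with mRpL48 at -0.35 and mRpL18 at -0.15. Relative to the median of all genes in the same setting it was -0.49 for the deposited values and -0.52 with the hybridization controls. With 5 genes and 1 array per genotype, this is a description of the 2 arrays, and no test sets these genes apart from others.

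Of the 4 genes listed for the stalks, 1 was at least 1.5-fold lower, where 7.74% of all measured genes were. The gene mRpL10, whose protein forms the base on which mRpL12 copies sit and recruits translation factors, had signals of 50.6 and 30.7, or 1.65-fold lower on the mbf1 array. The gene mRpL12 itself had signals of 60.03 and 55.3, a ratio of -0.12. The gene mRpL11, of the factor-binding base, had a ratio of 0.14, and mRpL1, of the stalk at the tRNA exit, had one of -0.02.

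The highest ratios also came from the large subunit. The gene mRpL14, whose protein lies on the face towards the small subunit, had signals of 22.9 and 43.5, a ratio of 0.93 or 1.90-fold higher on the mbf1 array. The gene mRpL21 had signals of 22.8 and 39.5, a ratio of 0.80 or 1.74-fold higher. Both were close to the floor on the yw array, and raising the floor to the 60th percentile gave ratios of 0.28 and 0.15. Also in this range, mRpL3 and mRpL4, of the ancient core of the subunit, did not reach the floor in yw, at 8.1 and 7.8, and were just above it in mbf1, at 22.8 and 21.3. That makes them at least 1.28-fold and at least 1.202-fold higher, and lowering the floor to the 25th percentile took both bounds past 2-fold, to 1.35 and 1.26 on the log2 scale.

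Among the large subunit genes with strong signals, ratios lay on both sides of 0. The gene mRpL28 had the highest signals of all members, 252.3 and 192.9, a ratio of -0.39. The gene mRpL13 had signals of 148.4 and 105.0, or 1.41-fold lower on the mbf1 array. On the other side was mRpL42, with signals of 134.3 and 156.7 and a ratio of 0.22. The gene mRpL16, whose bacterial counterpart lies near the peptidyl transferase centre, had signals of 124.8 and 115.9. Signal strength here says how well a probe set can be read and not how much transcript there was, since probe sets are not on one scale.

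The rest of the large subunit filled the range between. Near 0 were mRpL2, of the peptidyl transferase region, at 0.05, mRpL19 at -0.02, mRpL32 at -0.02, mRpL39 at 0.02, mRpL44, whose protein has a ribonuclease III type of fold, at 0.03, and mRpL51 at -0.04. Above 0 were mRpL9 at 0.34, mRpL33 at 0.32, mRpL55, which is needed for larval growth in the fly, at 0.29, mRpL43 at 0.16, mRpL35 at 0.15 and mRpL20 at 0.08. Below 0 were mRpL49 at -0.39, mRpL30 at -0.32, mRpL41 at -0.18, mRpL36 at -0.17, mRpL15 at -0.15, mRpL50 at -0.13 and mRpL52 at -0.10. None of these genes was 1.5-fold apart.

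Small subunit genes had a median ratio of 0.02 over 20 measured members, 11 above 0 and 9 below, and 0 of them reached 1.5-fold in either direction. The lowest was mRpS18C, with signals of 116.7 and 78.2, a ratio of -0.58 or 1.49-fold lower on the mbf1 array. After quantile normalization and loess it passed 1.5-fold, at -0.59 and -0.60. It is 1 of 3 versions of the S18 gene in the fly. The version mRpS18A had signals of 71.2 and 62.2, a ratio of -0.20, and mRpS18B was under the floor on both arrays, at 6.5 and 16.0. In mammals the counterpart of mRpS18A sits in the large subunit, in spite of its name.

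Within the small subunit, members with bacterial numbers and members with mitochondrial numbers leaned to different sides. Among the 9 measured genes numbered up to 21, as in the bacterial small subunit, 7 were lower on the mbf1 array and the median ratio was -0.05. Among the 11 with higher numbers, most of them proteins added in the mitochondrial line, 9 were higher and the median was 0.12. Over all measured genes, 50.2% were lower. Median signals on the yw array were 81.5 for the lower-numbered class and 49.2 for the other. The part of brightness in the different ratios was not tested. The lower-numbered class leaves out tko and bonsai, for the mitochondrial S12 and S15 proteins, because their symbols lack the prefix. Both had ratios above 0, at 0.33 and 0.23. The split by number in the large subunit did not run the same way, with medians of -0.02 for 26 genes numbered up to 36 and -0.07 for 16 genes above that. No test of these differences is possible with 1 array per genotype.

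The highest ratios of the small subunit belonged to genes with mitochondrial numbers. The gene mRpS31 had signals of 38.6 and 55.8, or 1.45-fold higher on the mbf1 array. The gene mRpS34 had signals of 29.7 and 41.9, or 1.41-fold higher. The gene mRpS29, for the GTP-binding protein known in mammals as death associated protein DAP3, had signals of 69.6 and 91.4, or 1.31-fold higher. The gene mRpS30, whose mammalian counterpart lies in the large subunit, had signals of 49.1 and 57.9, a ratio of 0.24. The remaining genes above 0 in this class were mRpS33 at 0.14, mRpS35 at 0.12, mRpS25 at 0.11, mRpS26 at 0.03 and mRpS24 at 0.01. The 2 below 0 were mRpS28, with signals of 67.2 and 51.0 and a ratio of -0.40, and mRpS22 at -0.08.

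**Figure D2:**
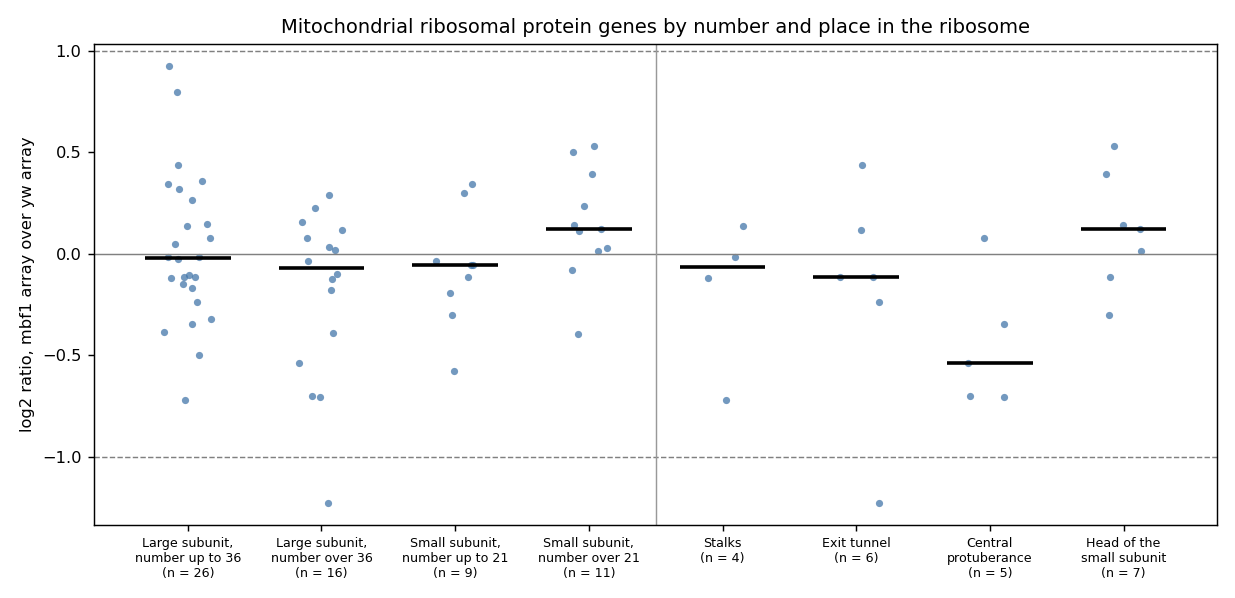
Log2 ratio, mbf1 over yw, of each measured gene (points, spread sideways only to show them) and the group median (bar), by subunit and number on the left of the vertical line and by place in the ribosome on the right; the n under each group counts genes, and the dashed lines mark 2-fold. Medians lie between -0.12 and 0.12 except for the 5 central protuberance genes, at -0.54.

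Of the small subunit genes with bacterial numbers, mRpS7, which encodes a protein of the head near the tRNAs, had signals of 197.0 and 159.7, a ratio of -0.30. The gene mRpS16 had signals of 122.1 and 119.3, a ratio of -0.03. The genes mRpS9, mRpS11 and mRpS6 had ratios of -0.12, -0.05 and -0.05. Above 0 were mRpS17, with signals of 54.9 and 69.6 and a ratio of 0.34, and mRpS2 at 0.30. The 7 measured genes listed for the head of the subunit had a median of 0.12. Of them 5 were above 0, where 3825 of all 7677 measured genes were.

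Repeated readings were available for 2 members only. Both probe sets of mRpL11 were above the floor and gave similar ratios, 0.14 and 0.19. The second probe set of mRpL12 was under the floor on both arrays, at 5.9 and 4.8, and gave no ratio. Across the whole array, 260 genes had such repeats, and their disagreement gives 1 ratio an SD of 0.38 (log2). Besides mRpS18B, mRpL54 was under the floor on both arrays, at 10.8 and 17.6, the second value lying just under it.

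Ratios were also set out by signal. Among the 60 members above the floor on both arrays, the SD of the log2 ratios was 0.51 over the 20 dimmest, with mean signals of 22.8 to 48.9, 0.24 over the middle 20 and 0.30 over the 20 brightest, with mean signals of 69.4 to 222.6. The brightest 20 had a median of -0.11, where all 1949 genes of that signal range had a median of 0.02. Of these 20 members 15 were below 0, where 3357 of all 6651 genes above the floor on both arrays were. The dimmest 20 had a median of 0.00, where that of all genes in their range was -0.02. The dimmest 20 include mRpL47, mRpL14 and mRpL21, the 3 largest ratios in size, and without these the SD of the other 17 was 0.35.

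**Figure D3:**
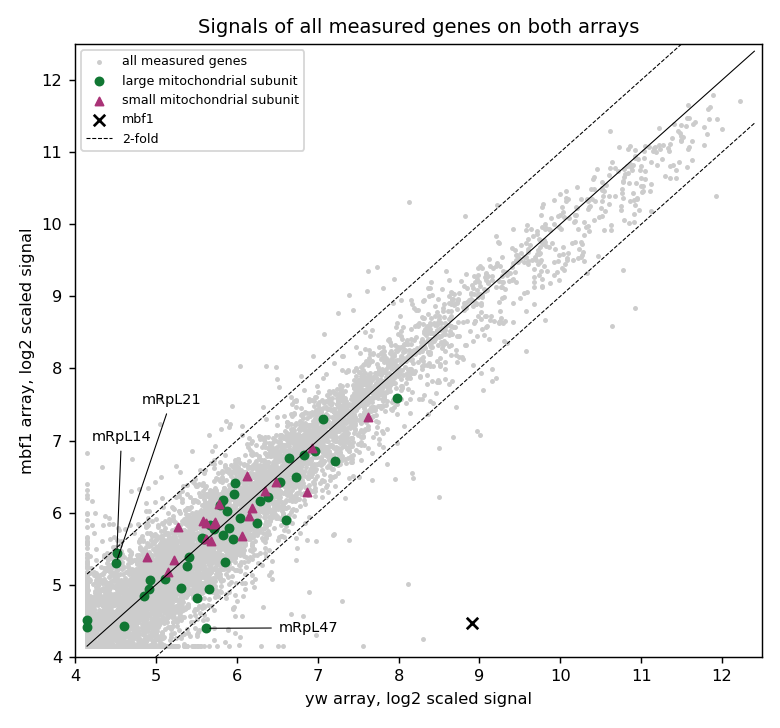
Log2 scaled signal on the yw array (x axis) against the mbf1 array (y axis) for the 7677 measured genes (grey), with the large subunit (circles) and small subunit (triangles) members and mbf1 (cross); values under the floor are drawn at the floor, the solid line marks equal signals and the dashed lines 2-fold. The members follow the line of equal signals, mRpL47 lies below the lower dashed line, and mbf1 is far below it.

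Mitochondrial ribosomal proteins under other names, and most measured factors that work with the ribosome, had ratios above 0. The genes tko and bonsai, which encode the mitochondrial S12 and S15 proteins, had ratios of 0.33 and 0.23, tko with signals of 27.3 and 34.4 and bonsai with 57.7 and 67.5. Of 9 translation factor genes with a probe set 5 were measured, 4 of them above 0, with a median of 0.19. These 4 include mRRF1, which passed the floor on the mbf1 array only, so that its sign was set by the filter. Among the 4 factor genes above the floor on both arrays, 3 were above 0 and the median was 0.12. Over all 7677 measured genes, 3825 were above 0. The elongation factor gene mEFTs had signals of 137.8 and 159.0, and mEFTu2 had 235.6 and 245.2. The recycling factor gene mRRF1 was under the floor on the yw array, at 4.3, and had 30.4 on the mbf1 array, at least 1.71-fold higher.

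Genes listed for the tRNA synthetases of mitochondria, which charge the tRNAs this ribosome reads, had a median of -0.05 over 13 measured genes. Of these, 8 were below 0, where 50.2% of all measured genes were. Among the 11 above the floor on both arrays, 6 were below 0. The list also holds GatA, which is not a synthetase. Its genes GlyRS, HisRS, LysRS and ThrRS have symbols without the -m of the other synthetases, so it is not purely mitochondrial. The members farthest from 0 were MetRS-m and ThrRS. The first had 28.5 in yw and was just under the floor in mbf1, at 17.6, or at least 1.61-fold lower, and its second probe set did not reach the floor on either array. The second had signals of 63.5 and 100.6, a ratio of 0.66. Genes for copying, transcribing and processing the mitochondrial genome had a median of -0.05 over 14 measured genes. Among them bsf, which stabilises mitochondrial messages, had signals of 37.05 and 67.1, or 1.81-fold higher on the mbf1 array. The gene mtSSB, for the DNA-binding protein of mitochondrial replication, had a ratio of 0.40 and mTerf5, a transcription termination factor gene, one of -0.44.

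Import genes, through whose products all mitochondrial ribosomal proteins enter, had a median of 0.00 over 18 measured genes, 9 on each side. The inner membrane channel gene Tim17b1 had signals of 53.6 and 30.5, or 1.76-fold lower on the mbf1 array, and ttm3, related to the channel receptor Tim50, had 37.1 and 62.1, or 1.68-fold higher. Chaperones and proteases of the mitochondrial matrix and inner membrane had a median of 0.19 over 13 measured genes. Of these, 7 were above 0, where 3825 of all 7677 measured genes were. In this list Hsp60A, the main chaperonin gene, had a ratio of 0.41, and the prohibitin gene Phb2 had 0.43. The protease gene Spg7 had 0.71 and the chaperonin copy Hsp60D had -0.68.

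The respiratory complexes, for which, complex II aside, the mitochondrial ribosome makes core subunits, differed from its own protein genes on these arrays. Of 70 measured nuclear genes of the respiratory complexes and the ATP synthase, 63 had ratios below 0 and 23 were at least 1.5-fold lower, against 33 and 4 of the 62 ribosomal members. Over all measured genes the shares were 50.2% and 7.74%. The respiratory median was -0.50, with quartiles of -0.64 and -0.37, which lie outside the members' quartiles of -0.18 and 0.15. With the values as deposited the respiratory median turned to 0.05 while that of the members was 0.52, and scaling on hybridization controls gave -0.28 and 0.19. The gap between the lists was therefore present in each scaling, and its size was 0.35 after quantile normalization and 0.38 after loess. This difference could not be tested with 1 array per genotype.

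The lists differ in brightness as well. Median signals on the yw array were 55.0 for the mitochondrial ribosomal genes and 931.7 for the respiratory genes. Cytoplasmic ribosomal proteins, with 37 measured genes and a median signal of 1465, were brighter still and had a median ratio of -0.02, which became 0.16 after quantile normalization and 0.14 after loess. Muscle, a tissue rich in mitochondria, had marker genes lower on the mbf1 array. Of 15 measured muscle markers 12 were below 0, where 50.2% of all measured genes were. The gene up is among the 12 by its brighter probe set, at -0.46, and its dimmer one had 0.44. The markers had a median of -0.51, and their signals summed to 15434 in yw and 10159 in mbf1. The part of muscle content in the respiratory list's lower signals was not tested.

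**Figure D4:**
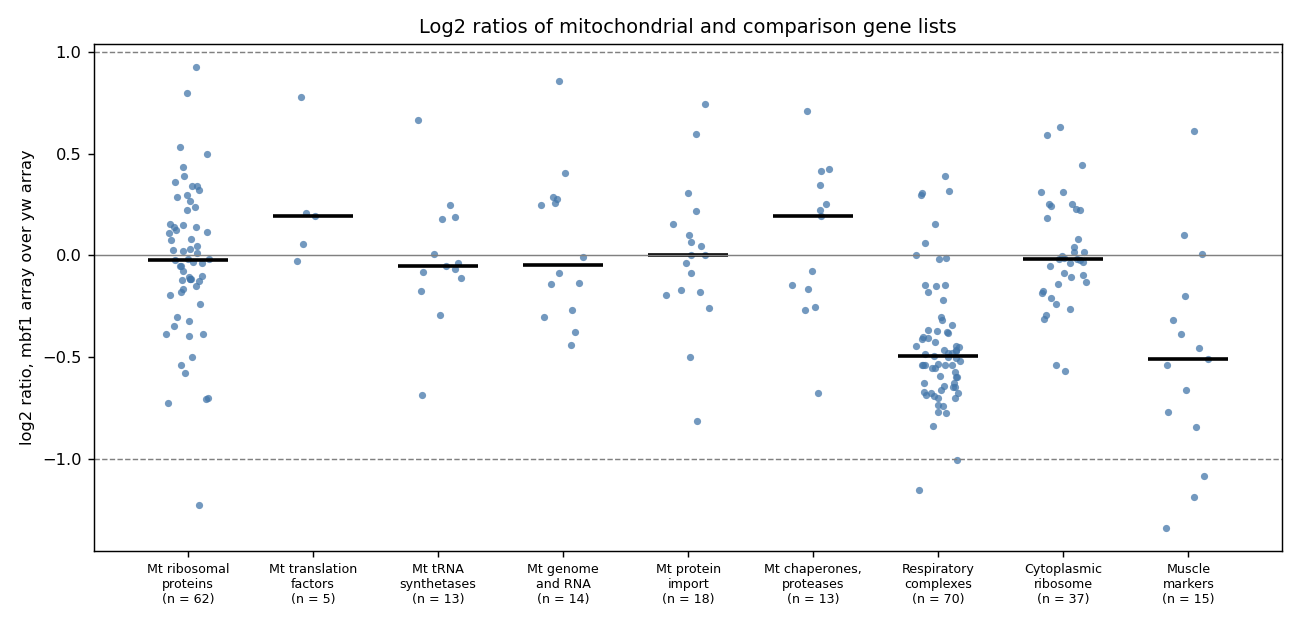
Log2 ratio, mbf1 over yw, of each measured gene (points) and the list median (bar) in the mitochondrial ribosome, other mitochondrial lists, the cytoplasmic ribosome and muscle markers; dashed lines mark 2-fold, n counts genes, and Mt stands for mitochondrial. The respiratory complexes, at -0.50, and the muscle markers, at -0.51, have the lowest medians, and the mitochondrial ribosome, at -0.02, lies with the import and tRNA synthetase lists.

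The ratio of 3' to 5' signal, a measure of how complete the labelled RNA is, was 2.57 in yw and 2.88 in mbf1 for GAPDH, 2.33 and 2.20 for actin and 3.09 and 2.55 for eIF-4a. Testis markers gave strong signals in both samples, although the label of both is embryo, with median signals of 503.4 and 573.5 over 17 measured genes and a median ratio of 0.01, and of 7 germ line genes with a probe set 2 were measured. Genes for the nucleolus and for making cytoplasmic ribosomes had a median of 0.15 over 10 measured genes, 7 above 0. Among these 7, Ns1 passed the floor on the mbf1 array only. Of all 7677 measured genes, 3825 were above 0.

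**Figure D5:**
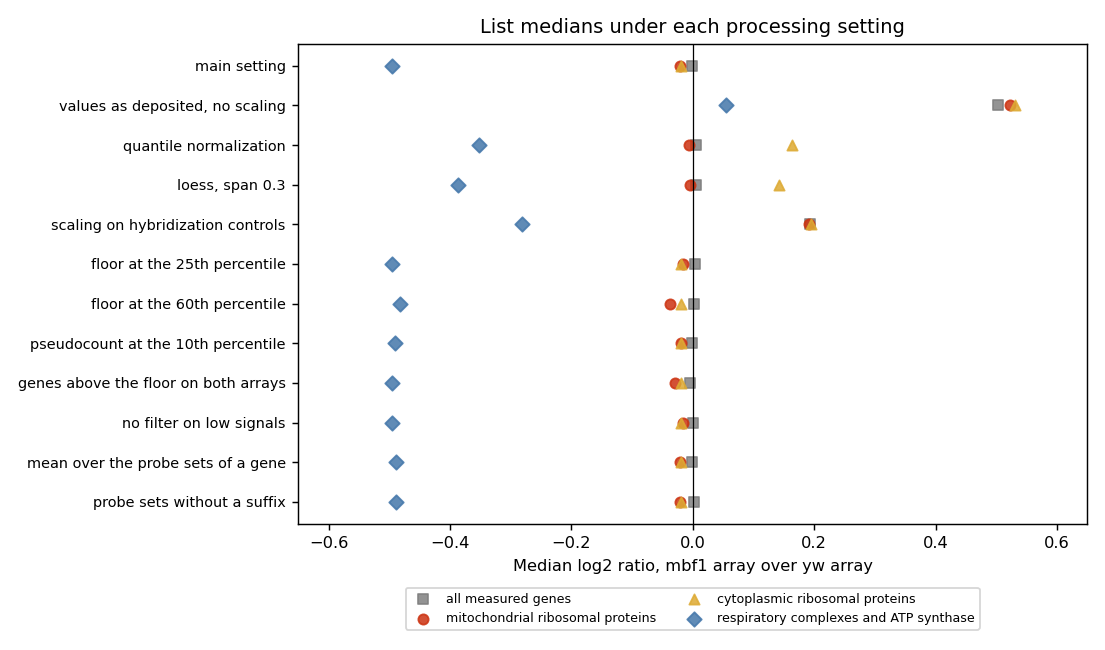
Median log2 ratio of 4 gene lists (x axis) under the main setting and 11 alternatives (y axis). In each setting the mitochondrial ribosomal proteins (circles) lie within 0.04 of all measured genes (squares), while the respiratory complexes (diamonds) lie lower by 0.36 or more.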

How the data were processed

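RNA of 1 yw and 1 mbf1 sample was hybridised to the first Drosophila genome chip of Affymetrix. The deposited intensities, 1 per probe set and array on a linear scale, were made by the authors with MAS5, per the submitters' processing notes; the version, target level and detection calls were not stated, and neither was a genome build, so no coordinates are printed. Of 14010 probe sets 44 were controls, and GEO's platform annotation gave 1 symbol for 12444, several for 327 and none for 1239; 12394 were matched by gene identifier to a gene table of the Release 6 assembly. The table held 0 columns beyond the 2 arrays.

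The median ratio of 6387 probe sets in the upper part of the signals on both arrays was set to 0, a shift of 0.55 (log2). The floor, the measured genes and the 2-fold and 1.5-fold thresholds are as given above. A gene was represented by its probe set of highest mean signal. Lists were described by counts and medians, with no test. Number classes are by symbol alone. Members and lists were chosen with earlier results of these data known. Signals were named for the 8 highest and 8 lowest ratios, the 6 strongest signals, members 1.5-fold apart, repeated or under the floor; of other lists, for at most 4 genes, the largest ratios, beside genes 2-fold apart; some signals and ratios outside this rule were added after they were seen. The procedure was tested on simulated data. Python 3.11.15, pandas 2.3.3 and statsmodels 0.14.6 were used. With 1 array per group, the number of arrays limits the precision.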

Additional observations from a re-analysis of the deposited data

How the results depend on the processing

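The member median of -0.02 and the medians of -0.03 (large subunit) and 0.02 (small subunit) followed the scaling: they were 0.52, 0.51 and 0.57 with the values as deposited, and 0.19, 0.18 and 0.23 with scaling on hybridization controls, where all genes had medians of 0.50 and 0.19. Raising the floor to the 60th percentile gave -0.11 for the large subunit. The counts at least 2-fold higher and lower, 0 and 1, were 4 and 0 as deposited, and 2 genes were higher with the hybridization controls, with the lower floor (25th percentile) and with a pseudocount. At 1.5-fold, 2 higher and 4 lower became 24 and 1 as deposited and 6 and 1 with the hybridization controls. They became 0 and 1 with the higher floor. With the lower floor 6 were higher, and with a pseudocount 4. After quantile normalization and after loess 5 were lower, mRpS18C being added. With that higher floor, or a threshold of 3-fold, 0 were at least 2-fold or 3-fold lower, by construction. A median counted as moved beyond its standard error over members, a single ratio beyond the robust SD of the 500 genes of nearest signal, and a count beyond 1.5 times. Of 673 single-member ratios under 11 alternatives, 604 stayed within that SD, 62 moved with the values as deposited and 7 with another floor or a pseudocount. That count does not measure stability. Alternatives that changed only which genes or probe sets were kept left nearly every ratio as it was. Scaling on the hybridization controls moved 0 single ratios, although it moved the member medians. Only mRpL47 was past 2-fold lower or higher in the main setting. Its sign held in all 11 alternatives, as did that of mRpS24, whose ratio was 0.01. All alternatives reuse the same 2 arrays, so a held sign is no replicate. The ratio of mRpL47 was -0.68 with the values as deposited. As deposited, 59 of 64 measured members were above 0 and 5 below, as were 7103 and 784 of all 7887 measured genes. In the main setting the members' counts were 29 and 33, beside 3825 and 3852 of all 7677 genes. No paired analysis was possible because each group has 1 array. Signal near background limits what can be said of mRpL3, mRpL4, mRpL54 and mRpS18B.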

Other observations

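The genes next to each mitochondrial ribosomal protein gene were taken from the order of genes in the gene table. Of 83 measured protein-coding genes next to a member, 3 were lower in mbf1 by 2-fold or more and 1 was higher by as much, where 1.63% and 1.51% of all measured genes were, and their median ratio was -0.05. The homeobox gene tup, next to mRpL13, had signals of 101.6 and 24.1, a ratio of -2.08, where mRpL13 had -0.50. The gene nmdyn-D6, next to mRpS25, had a ratio of -1.48 where mRpS25 had 0.11, and CG3328, next to mRpS17, was at least 2.62-fold lower where mRpS17 had 0.34. The gene hzg, next to mRpS31, had signals of 92.2 and 214.0, a ratio of 1.22, where mRpS31 had 0.53.

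In 2 places a member adjoins a gene of the respiratory list. The complex III gene ox, whose span overlaps that of mRpL18, had signals of 3496 and 2199, a ratio of -0.67 (-0.52 by its other probe set), where mRpL18 had -0.34. The ATP synthase gene ATPsynD, next to mRpL55, had signals of 2518 and 1630, a ratio of -0.63, where mRpL55 had 0.29. In all, 25 of the 83 neighbours overlap the member in the gene table, and whether a probe set of one reads RNA of the other was not tested. The probe set annotated with both mRpS10 and CG34316 had signals of 73.1 and 58.0, a ratio of -0.33.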
